A study of Mus musculus with 6 samples.

Results

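MAP kinase phosphatases are enzymes that switch MAP kinases off by removing the activating phosphates from both a threonine and a tyrosine, and most of them are encoded by genes of the dual-specificity phosphatase (Dusp) family. The genes described here were chosen by name: Dusp1, Dusp2, Dusp4, Dusp5, Dusp6, Dusp7, Dusp10, Dusp16 and Dusp3. All 9 were found among the 17469 genes of the deposited count table, and all 9 had enough reads to be among the 12701 genes tested. Their RNA was compared between tdTomato+ osteoblast (OB) progenitors of control (Ocn-Cre;Ai9) and TgAPPswe (TgAPPswe;Ocn-Cre;Ai9) mice, both 6 months old and otherwise untreated, with 3 libraries of each genotype. In both genotypes the osteocalcin promoter drives Cre, and Ai9 is the reporter allele from which Cre releases red tdTomato fluorescence. The TgAPPswe mice carry in addition a human amyloid precursor protein gene with the Swedish mutation, driven by the CAG promoter behind a stop cassette that Cre removes. The labels call the source BMSCs, the adherent bone marrow cells, which were cultured, passaged and sorted for tdTomato. Replicates of these sorted cells are counted as mice in the study's legend, but no source used here ties each library to a mouse, so the p-values measure the spread between these libraries, which may be partly technical. Osteocalcin-driven Cre is also known to be active in some cells outside bone, and the control label names Cre and the reporter but no APPswe transgene.

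The libraries held 19340810 to 22037840 estimated counts, and the TgAPPswe libraries were the deeper ones. The smallest level taken as detectable, 3 counts, was 0.136 to 0.155 CPM (counts scaled to a common library total), which covers counting error only. Pairs of libraries were compared by the median chi-square over genes, a squared difference, with scaling by library totals only. Within a genotype it was 2.45 to 5.86 times that of sampling noise alone. Between genotypes it was 43.0 to 52.3 times, which includes any difference in RNA composition. App (gene ID 11820), whose single entry may take up reads of the human transgene as well as the mouse gene, had an FPKM (fragments scaled to gene length and library size) of 279 ± 3.5 in control and 330 ± 4.18 in TgAPPswe libraries (mean ± SD, n = 3) (log2 fold change 0.45, standard error 0.0509, edgeR adjusted p = 7.87e-05). Against the OB label, markers of myeloid cells were abundant: the 15 listed, led by Lyz2, C1qb and Fcer1g, had a summed FPKM of 23789 to 25509 in control and 18868 to 22602 in TgAPPswe libraries, with 4 called up and 4 down. The 15 stromal and osteoblast markers, led by Spp1, Sparc and Col1a2, summed to 1135 to 1220 and 652 to 914, with 1 called up and 0 down by edgeR (3 up and 4 down by adjusted p alone). Most of that sum was Spp1, with an FPKM of 944.4 ± 67.3 and 560.8 ± 98.9 (n = 3). The median FPKM over the 15 was 3.04 to 3.10 in control and 3.44 to 4.04 in TgAPPswe libraries, and the median log2 fold change of the 14 tested was 0.014. For the myeloid markers the median FPKM was 547 to 573 and 491 to 530, and the median log2 fold change was -0.16. Neutrophil, lymphocyte, endothelial and osteoclast markers each summed to at most 57.2 in any library. Called were 1 neutrophil marker up, 1 lymphocyte marker down, 1 endothelial marker up, and 2 osteoclast markers up and 1 down. The shares called over all tested genes were 8.9% up and 9.2% down (32.5% and 31.5% by adjusted p alone). No marker found in the table was at 0 in all 6 libraries. The part of these cell types in the results below was not tested, and fewer cells of a type cannot be told apart from less RNA per cell.

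MAP kinases are the last step of a relay of kinases. ERK answers mainly to growth factors, while JNK and p38 answer mainly to stress and cytokines, and ERK and p38 signals both take part in osteoblast differentiation. Transcription of several phosphatase genes is itself started by MAP kinase signals, so that the enzymes form a feedback brake. The family is usually ordered by place and substrate. Dusp1, Dusp2, Dusp4 and Dusp5 encode inducible nuclear enzymes, Dusp6 and Dusp7 encode cytoplasmic enzymes that prefer ERK, Dusp10 and Dusp16 encode enzymes that prefer JNK and p38, and Dusp3 encodes a small atypical enzyme without the MAP kinase-binding domain of the others.

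Genes were called when the adjusted p of edgeR's quasi-likelihood test (Benjamini-Hochberg over all tested genes) was at or below 0.05 and the log2 fold change was at least 1 in either direction. Of the 9 phosphatase genes, 2 were called up (Dusp2 and Dusp16), 2 were called down (Dusp6 and Dusp7) and 5 were not called. Over all tested genes, 8.9% were called up and 9.2% down (18.1% in either direction), or 1130 and 1169 genes. With scaling by library size only these were 846 and 1732 genes, and the same 4 phosphatase genes were called along with Dusp5. By the adjusted p alone 2 of the 9 rose and 4 fell, the additional ones being Dusp3 and Dusp5, where 32.5% of all tested genes rose and 31.5% fell (64% in either direction). On normalised CPM (CPM after TMM scaling, which adjusts for differences in RNA composition) the TgAPPswe libraries lay wholly above the control libraries for 2 of the 9 and wholly below for 5, where 34.8% and 34.9% of all tested genes did so (69.7% in either direction). The median log2 fold change of the 9 was -0.41, against -0.019 for all tested genes. Every one of the 9 kept its call when any single library was left out.

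**Figure D1:**
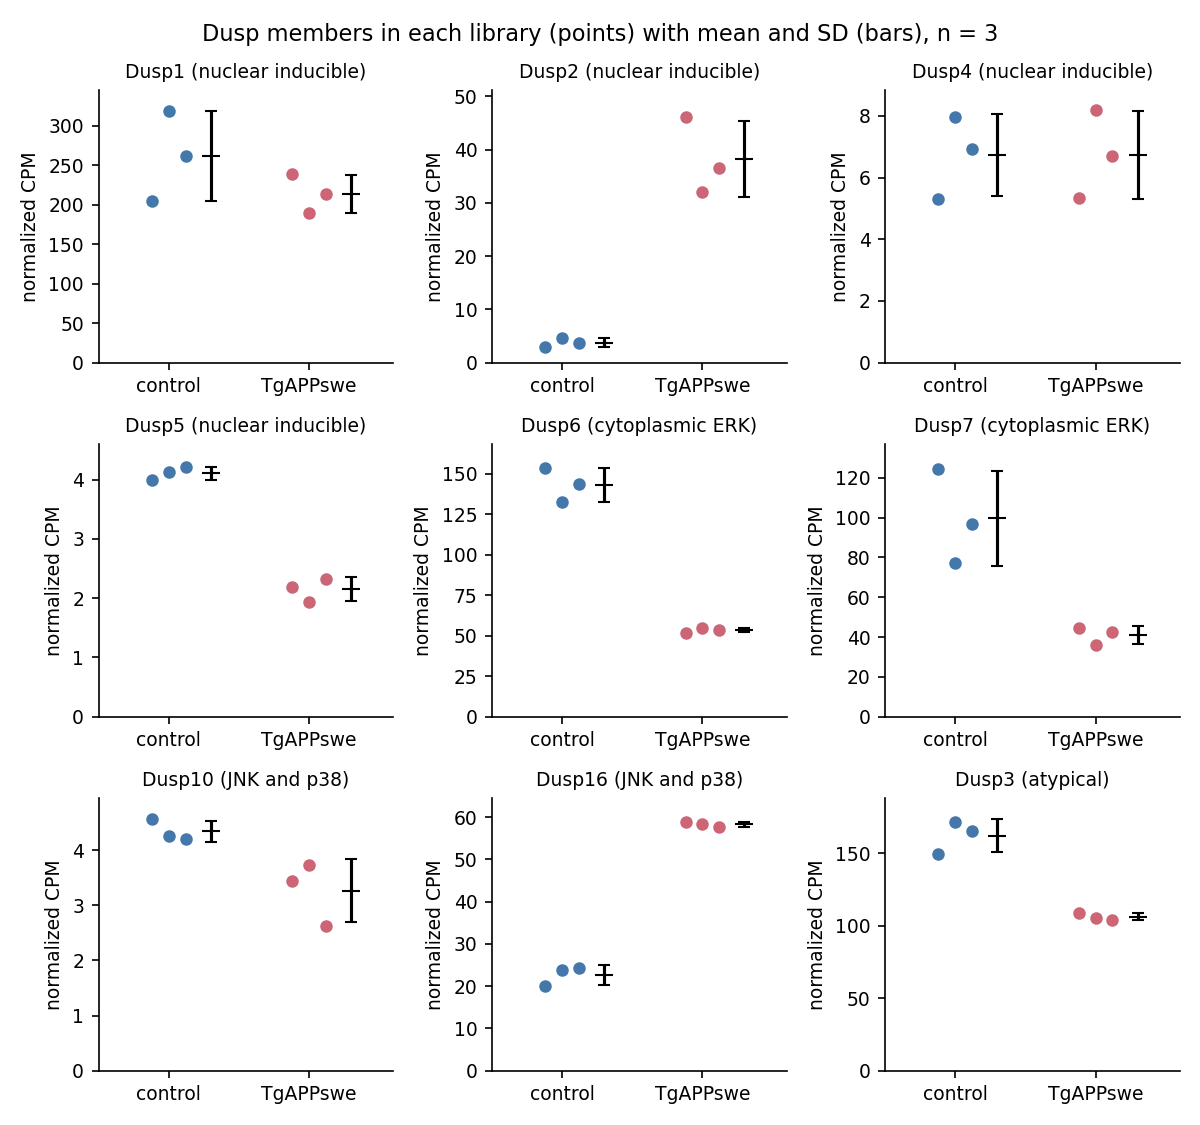
Normalised CPM (vertical axes, linear and starting at 0) of the 9 phosphatase genes in the 3 control and 3 TgAPPswe libraries, 1 point per library, with the mean and SD as bars beside the points. The genotypes do not overlap for Dusp2, Dusp5, Dusp6, Dusp7, Dusp10, Dusp16 and Dusp3, and they overlap for Dusp1 and Dusp4.

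The 4 inducible nuclear genes differed from one another in size and direction. Dusp2 rose 10.2-fold, the largest change of the 9, while Dusp5 fell 1.91-fold by the adjusted p, short of the fold threshold. Dusp1, the most abundant of the 9 in both genotypes, and Dusp4 were not called.

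Dusp2 (gene ID 13537, GRCm38 chr2:127336159-127338377, plus strand) encodes a nuclear phosphatase first described in activated lymphocytes and known as an immediate-early gene. Its normalised CPM was 2.90, 4.59 and 3.78 in control libraries 1 to 3 and 46.1, 32.1 and 36.6 in TgAPPswe libraries 1 to 3. The lowest TgAPPswe library thus lay well above the highest control library. These levels rested on 61, 98 and 79 estimated counts against 923, 662 and 738. The log2 fold change was 3.34 (standard error 0.185, 95% interval 2.92 to 3.77, edgeR adjusted p = 1.44e-06), and it lay between 2.72 and 3.51 under every alternative tried. Because the gene carried the largest rise, the 250 bases before its RefSeq start (GRCm38.p6) are shown. They were searched on both strands for 8 motifs, and matches are in capitals, here GGGCGG (GC box), CACGTG (E-box) and GGAAG (ETS core, all on the minus strand and so read as CTTCC).
Dusp2 chr2:127335909-127336158 (+): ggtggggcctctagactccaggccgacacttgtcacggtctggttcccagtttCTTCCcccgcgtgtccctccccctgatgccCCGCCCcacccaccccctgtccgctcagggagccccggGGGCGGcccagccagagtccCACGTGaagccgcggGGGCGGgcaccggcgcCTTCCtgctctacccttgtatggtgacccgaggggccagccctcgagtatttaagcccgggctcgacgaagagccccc
This window held 3 GC boxes, 1 E-box at 109 bases before the start and 2 ETS cores. Among 32851 mouse promoter windows of the same length, 32.7% held a GC box, 6.02% the E-box and 64.1% the ETS core. A match describes letters only and names no bound factor.

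Dusp1 (gene ID 19252, chr17:26505591-26508472, minus strand) encodes a nuclear phosphatase that acts on p38 and JNK as well as ERK, and is induced by stress and by glucocorticoids. Control libraries 1 to 3 had a normalised CPM of 205, 319 and 261, and TgAPPswe libraries 1 to 3 had 238, 189 and 213. The genotypes overlapped, with control library 1 below TgAPPswe libraries 1 and 3. The log2 fold change of -0.29 (standard error 0.151, 95% interval -0.64 to 0.06) did not pass the test (edgeR adjusted p = 0.124). Single libraries moved this value: without control library 1 the log2 fold change was -0.45 (adjusted p = 0.0107), and without control library 2 it was -0.13 (adjusted p = 0.409). On the FPKM scale, which carries no composition scaling, the control libraries (117 to 183) lay just above the TgAPPswe libraries (95.3 to 116), and with scaling by library size only the log2 fold change was -0.51 (adjusted p = 0.0161). Exons of Ergic1 overlap Dusp1 on the opposite strand, and the strand setting of the counting is not given in the sources used here, so reads of the pair cannot be told apart. The promoter is well known for a cyclic AMP response element (CRE, TGACGTCA), and a stretch of 30 bases around the only such match in the 8 windows at hand is shown with the match in capitals.
Dusp1 chr17:26508597-26508626 (-): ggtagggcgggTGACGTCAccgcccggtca
The match began 143 bases before the start, and 1.55% of all promoter windows held one on either strand. The shorter CRE core TGACG, which every full CRE contains on both strands, was found in 3 of the 8 phosphatase windows at hand (Dusp1, Dusp5 and Dusp16) and in 17.8% of all windows.

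Dusp4 (gene ID 319520, chr8:34807610-34819894, plus strand) encodes a nuclear phosphatase closely related to that of Dusp1. Normalised CPM was 5.32, 7.97 and 6.94 for control and 5.34, 8.18 and 6.69 for TgAPPswe libraries 1 to 3. The means of 6.74 in each genotype could not be told apart (log2 fold change -0.00018, standard error 0.201, edgeR adjusted p = 0.999), although the 95% interval of -0.46 to 0.46 leaves room for a modest difference either way. Its direction is therefore not determined, and it turned with DESeq2 and with RLE size factors.

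Dusp5 (gene ID 240672, chr19:53529145-53541809, plus strand) encodes a nuclear phosphatase specific to ERK. In control libraries 1 to 3 its normalised CPM was 3.99, 4.12 and 4.21, and in TgAPPswe libraries 1 to 3 it was 2.195, 1.94 and 2.33. Each genotype was tight and the genotypes stood apart, from 84, 88 and 88 estimated counts against 44, 40 and 47. The log2 fold change was -0.93 (standard error 0.162, 95% interval -1.30 to -0.56, edgeR adjusted p = 0.00107), and it passed the fold threshold with scaling by library size only (-1.15). An antisense gene, AC137853.2, overlaps its exons, and reads of the pair cannot be told apart either. Its promoter is known to answer to ERK through serum response factor, and the 30 bases around the only CArG boxes (the binding motif of that factor) found in these windows are shown with both matches in capitals.
Dusp5 chr19:53529058-53529087 (+): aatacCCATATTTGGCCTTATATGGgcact
The matches began 82 and 72 bases before the start, and 1.47% of all windows held such a motif.

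Both cytoplasmic ERK phosphatase genes fell, by 2.68-fold for Dusp6 and 2.43-fold for Dusp7. They were the 2 phosphatase genes called down.

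Dusp6 (gene ID 67603, chr10:99263231-99267489, plus strand) encodes the best studied of the ERK-selective enzymes and is often used as a readout of ERK activity. Its normalised CPM was 153, 132 and 143 in control libraries 1 to 3 and 51.9, 54.5 and 53.7 in TgAPPswe libraries 1 to 3. The TgAPPswe libraries lay close to one another and far below every control library. The log2 fold change was -1.42 (standard error 0.0678, 95% interval -1.58 to -1.27, edgeR adjusted p = 6.6e-07), between -1.64 and -1.38 under the alternatives. As the gene with the largest fall, its 250 bases before the start are shown beside those of Dusp2, with the same capitals.
Dusp6 chr10:99262981-99263230 (+): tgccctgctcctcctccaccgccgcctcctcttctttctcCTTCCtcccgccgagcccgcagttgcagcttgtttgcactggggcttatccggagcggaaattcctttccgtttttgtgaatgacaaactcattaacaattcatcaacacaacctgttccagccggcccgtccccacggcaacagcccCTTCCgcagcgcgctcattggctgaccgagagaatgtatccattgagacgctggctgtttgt
Only the ETS core was found in it, 210 and 62 bases before the start on the minus strand, and it held neither a GC box nor an E-box. Its GC content was 56.4%, against 70.4% in the Dusp2 window.

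Dusp7 (gene ID 235584, chr9:106368560-106375724, plus strand) encodes a close relative of the Dusp6 enzyme. Control libraries 1 to 3 had a normalised CPM of 125, 77.3 and 97.0, and TgAPPswe libraries 1 to 3 had 44.6, 36.0 and 42.6. Control libraries spread more than TgAPPswe libraries (SD 23.8 against 4.52), but the lowest of them still exceeded the highest TgAPPswe library. The log2 fold change was -1.28 (standard error 0.164, 95% interval -1.65 to -0.90, edgeR adjusted p = 0.000177). None of the 8 motifs was found in its window.

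Of the genes of the JNK and p38 phosphatases, Dusp16 rose 2.57-fold and Dusp10 did not pass the test. Their ratio within each library is given further on.

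Dusp16 (gene ID 70686, chr6:134715468-134807063, minus strand) encodes a phosphatase known to act on JNK in macrophages and other cells. Its normalised CPM was 19.95, 23.8 and 24.3 in control libraries 1 to 3 and 58.8, 58.3 and 57.7 in TgAPPswe libraries 1 to 3. The TgAPPswe libraries were nearly identical (SD 0.557) and all above control. The log2 fold change was 1.36 (standard error 0.0803, 95% interval 1.18 to 1.54, edgeR adjusted p = 2.07e-06), with alternatives between 1.01 and 1.40. The 250 bases before its RefSeq start, which lies inside the longer annotated gene, are shown as the second of the genes that rose.
Dusp16 chr6:134792629-134792878 (-): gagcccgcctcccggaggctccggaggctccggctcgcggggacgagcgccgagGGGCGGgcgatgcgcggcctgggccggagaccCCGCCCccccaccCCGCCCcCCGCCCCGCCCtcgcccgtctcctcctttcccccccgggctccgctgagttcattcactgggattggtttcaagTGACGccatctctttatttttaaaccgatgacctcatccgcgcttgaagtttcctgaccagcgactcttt
The window held 5 GC boxes in capitals, as did no other window, and 1 CRE core 70 bases before the start, but no ETS core or E-box. Across the 8 windows, 6 held a GC box, 4 an ETS core, 2 an E-box, and 0 an AP-1 motif (TGANTCA, 6.75% of all windows) or an NF-kB motif (3.9% of all windows). No entry was at hand for Dusp4.

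Dusp10 (gene ID 63953, chr1:184034381-184075636, plus strand) encodes a phosphatase of p38 and JNK. Its normalised CPM was 4.56, 4.26 and 4.21 for control and 3.44, 3.73 and 2.63 for TgAPPswe libraries 1 to 3. Every TgAPPswe library lay below every control library, but the log2 fold change of -0.41 (standard error 0.174, 95% interval -0.81 to -0.013) did not pass the test (edgeR adjusted p = 0.0666, from 0.00565 to 0.223 over the alternatives).

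Dusp3 (gene ID 72349, chr11:101971141-101987013, minus strand) encodes the atypical enzyme, which acts on ERK and JNK and on other phosphotyrosine substrates. Its normalised CPM was 149, 172 and 165 in control libraries 1 to 3 and 109, 105 and 104 in TgAPPswe libraries 1 to 3. It fell 1.53-fold by the adjusted p, with no overlap between genotypes (log2 fold change -0.61, standard error 0.0647, 95% interval -0.76 to -0.46, edgeR adjusted p = 5.49e-05), short of the fold threshold. The estimated count was fractional in 1 library, and an antisense gene, Gm20659, overlaps its exons, so that the values may hold reads of both.

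**Figure D2:**
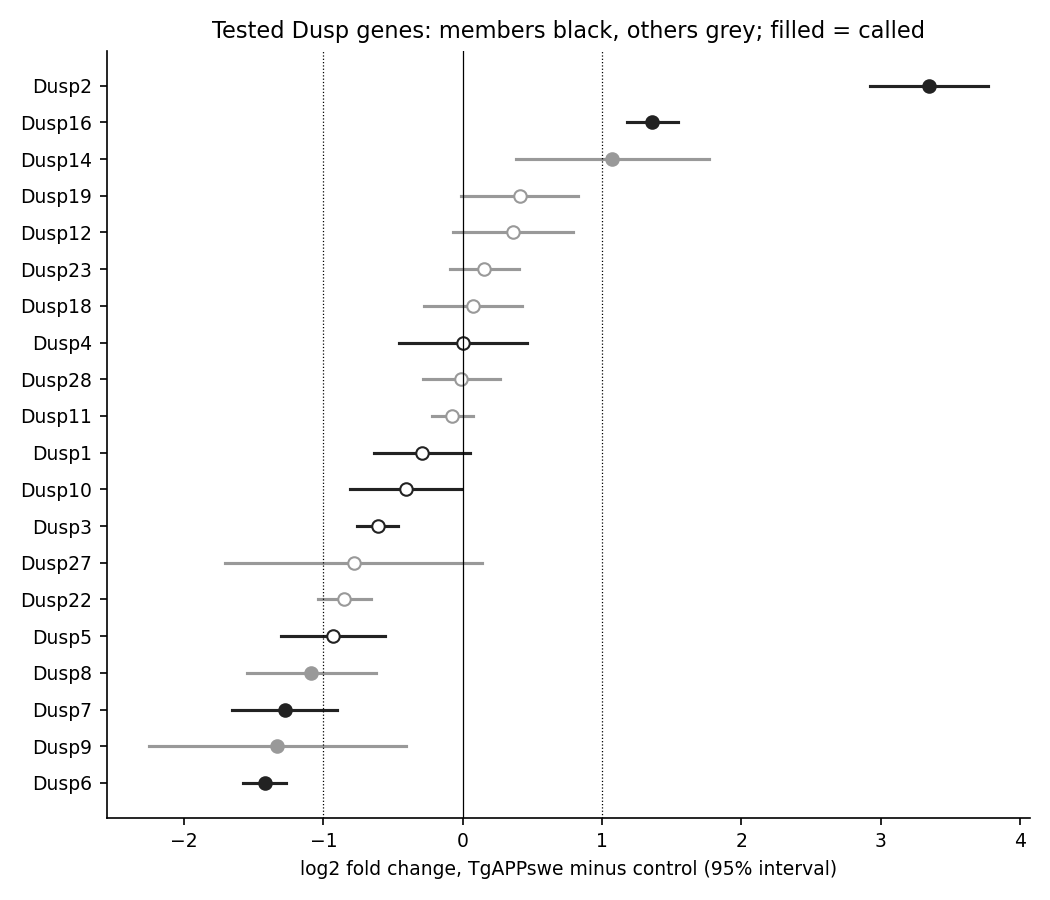
Log2 fold change (TgAPPswe minus control, horizontal axis) with its 95% interval from edgeR for the 20 tested Dusp genes, the 9 described genes in black and the others in grey, filled where called. Dotted lines mark a log2 fold change of 1 in each direction. Dusp2 stands far to the right at 3.34, and Dusp6 is lowest at -1.42.

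Levels can be compared between genes only per length, on the FPKM scale. In control libraries the order was Dusp1 (150.2 ± 33.0, mean ± SD, n = 3), Dusp6 (56.4 ± 4.03), Dusp3 (42.9 ± 2.96) and Dusp7 (34.1 ± 8.05), followed at a distance by Dusp16 (4.84 ± 0.521), Dusp5 (4.08 ± 0.121), Dusp4 (3.08 ± 0.615), Dusp2 (2.61 ± 0.590) and Dusp10 (1.78 ± 0.0666). Neighbours whose library ranges overlapped in this order were Dusp3 with Dusp7, and Dusp4 with Dusp2. In TgAPPswe libraries Dusp2 moved from rank 8 to rank 3. There the order of FPKM was Dusp1 (105.6 ± 10.1), Dusp3 (24.0 ± 0.366), Dusp2 (22.8 ± 3.82), Dusp6 (18.1 ± 0.780), Dusp7 (12.1 ± 1.13), Dusp16 (10.7 ± 0.168), Dusp4 (2.66 ± 0.605), Dusp5 (1.84 ± 0.16) and Dusp10 (1.14 ± 0.207). Overlapping neighbours were Dusp3 with Dusp2, and Dusp7 with Dusp16.

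The make-up of the phosphatase transcripts was described as each gene's share of the summed FPKM of the 9, which does not depend on the scaling between libraries. The sum itself was 273.8, 324.6 and 301.3 in control libraries 1 to 3 and 212.6, 185.7 and 198.6 in TgAPPswe libraries 1 to 3. Dusp1 made up 49.7% ± 6.82 in control and 53.0% ± 1.55 in TgAPPswe libraries (SD, n = 3), with overlapping ranges. The share of Dusp2 went from 0.863% ± 0.125 to 11.4% ± 1.14, and that of Dusp16 from 1.61% ± 0.0987 to 5.40% ± 0.443. Dusp6 and Dusp7 together, the cytoplasmic ERK phosphatases, held 30.5% ± 6.67 in control libraries (24.2% to 37.5%) and 15.2% ± 0.920 in TgAPPswe libraries (14.2% to 15.9%). The 4 inducible nuclear genes held 52.9% ± 6.97 and 66.7% ± 2.199, the JNK and p38 pair 2.21% ± 0.0972 and 5.98% ± 0.542, and Dusp3 14.3% ± 0.361 and 12.1% ± 0.826. In none of these 4 groups did the ranges of the genotypes overlap. With CPM in place of FPKM, which weights long transcripts more, the nuclear group held 38.8% and 49.8%, the cytoplasmic ERK pair 34.5% and 18.1%, the JNK and p38 pair 3.82% and 11.8%, and Dusp3 22.9% and 20.3%, so that sizes changed and each group kept its direction.

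**Figure D3:**
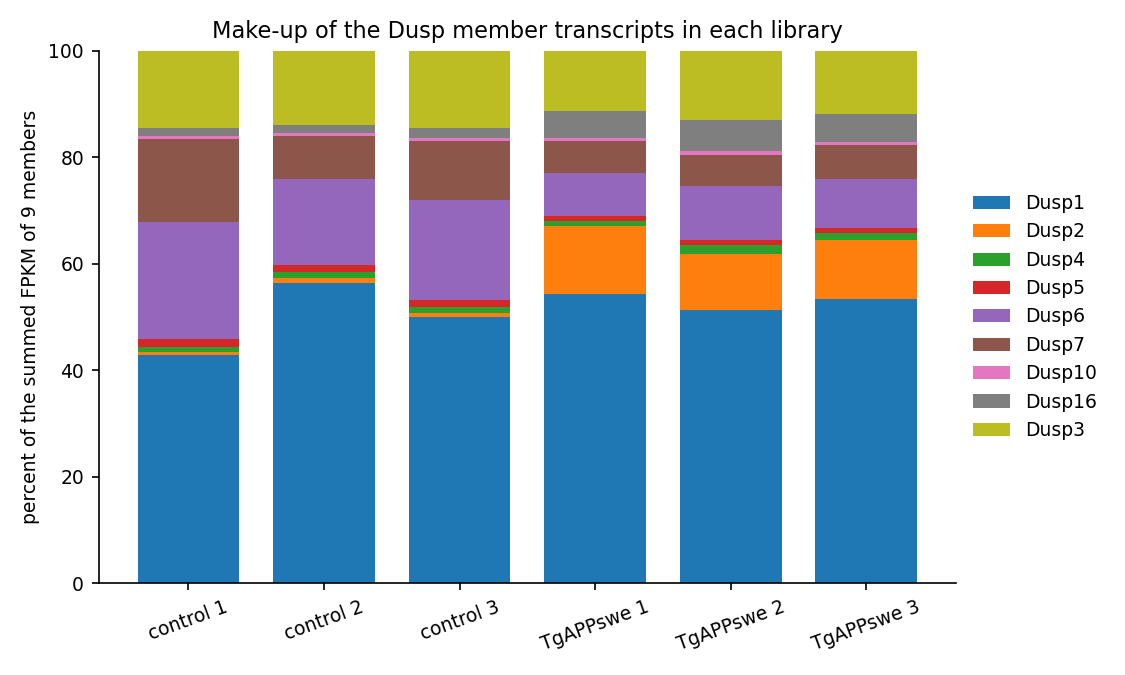
Share of each of the 9 phosphatase genes in their summed FPKM (percent, vertical axis, stacked to 100) in each of the 3 control and 3 TgAPPswe libraries, 1 bar per library. The Dusp2 segment is 0.734% to 0.983% in control and 10.5% to 12.7% in TgAPPswe libraries, and the Dusp6 segment is 16.1% to 21.98% and 8.13% to 10.1%.

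Ratios of the FPKM of 2 genes of the same class within a library were compared by an exact two-sided permutation test. With 3 libraries against 3 this test cannot give a p below 0.1, so none of the 4 pairs could reach 0.05. The log2 ratio of Dusp2 to Dusp5 was -0.97, -0.36 and -0.67 in control and 3.88, 3.54 and 3.46 in TgAPPswe libraries, a difference of 4.29 (exact p = 0.1). On the FPKM scale Dusp2 was thus the lesser of the pair in every control library and the greater in every TgAPPswe library. On normalised CPM, which is not divided by length, Dusp2 was the greater in control library 2 as well (4.59 against 4.12). The log2 ratio of Dusp10 to Dusp16 was -1.20, -1.53 and -1.60 in control and -3.17, -3.03 and -3.53 in TgAPPswe libraries, a difference of -1.80 (exact p = 0.1), with no overlap. Dusp6 against Dusp7 gave mean log2 ratios of 0.75 ± 0.239 and 0.59 ± 0.193 (difference -0.16, exact p = 0.5), and the genotypes overlapped. Dusp1 against Dusp4 gave 5.61 ± 0.0428 and 5.33 ± 0.472 (difference -0.27, exact p = 0.4), with the larger spread in the TgAPPswe libraries. Single libraries moved both of these small differences. That of Dusp1 and Dusp4 was -0.51 without TgAPPswe library 1 and -0.037 without TgAPPswe library 2. That of Dusp6 and Dusp7 was -0.048 without control library 2, -0.080 without TgAPPswe library 1, -0.27 without TgAPPswe library 2 and -0.29 without control library 1. Adjusted over the 4 pairs (Benjamini-Hochberg), the p-values were 0.2, 0.2, 0.5 and 0.5 in the order given.

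Of the 13 other Dusp genes in the table, 11 were tested, 1 was called up and 2 down, with a median log2 fold change of -0.012. All 3 called genes were scarce. Dusp8, which encodes a JNK and p38 phosphatase, fell from an FPKM of 0.997 ± 0.0493 to 0.4 ± 0.0917 (log2 fold change -1.09, edgeR adjusted p = 0.00156). Dusp9, the third cytoplasmic ERK phosphatase gene, fell from 0.29 ± 0.0872 to 0.0967 ± 0.0252 (log2 fold change -1.33, edgeR adjusted p = 0.0184), and Dusp14, an atypical member, rose from 0.317 ± 0.0321 to 0.553 ± 0.11 (log2 fold change 1.07, edgeR adjusted p = 0.0132). Dusp9 had 10, 17 and 18 estimated counts in control and 4, 6 and 7 in TgAPPswe libraries, and Dusp14 had 8, 9 and 9 against 18, 15 and 20. Each thus passed the filter only through the genotype where it was high. With at least 10 counts required in every library, neither was tested. Neither Dusp9 (adjusted p = 0.0889) nor Dusp14 (adjusted p = 0.0937) was called by DESeq2. Dusp9 also lost its call without control library 2, control library 3 or TgAPPswe library 1 (adjusted p = 0.0577 to 0.0727), Dusp14 without TgAPPswe library 3 (adjusted p = 0.0568), and Dusp8 without TgAPPswe library 2 (log2 fold change -0.94). Dusp22, with fractional estimated counts in all 6 libraries, had a log2 fold change of -0.85 (adjusted p = 3.75e-05). Dusp13 and Dusp15 had too few reads to be tested.

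The kinases that these enzymes act on, and the kinases above them, were given by lists of the pathway. Across the 102 genes of all pathway lists, the other Dusp genes included, 92 were tested, of which 4 were called up and 15 down, against the 8.9% and 9.2% of all tested genes. With scaling by library size only these were 1 up and 21 down. By the adjusted p alone 23 of the 92 rose and 37 fell, where 32.5% of all tested genes rose and 31.5% fell. The same shares apply to the counts by adjusted p in each list below. The median log2 fold change of the 92 was -0.070. Of the 9 tested MAP kinases, 1 was called up, 0 down (4 and 2 by edgeR's adjusted p alone). It was Mapk11, the beta form of p38, with an FPKM of 2.17 ± 0.393 in control and 4.20 ± 0.532 in TgAPPswe libraries (log2 fold change 1.17, adjusted p = 0.000319). Mapk3, which encodes an ERK kinase, had a log2 fold change of -0.33 (adjusted p = 0.00338), and the main p38 gene, Mapk14, of -0.18 (adjusted p = 0.0169). The JNK genes Mapk8 and Mapk9 had log2 fold changes of 0.010 (adjusted p = 0.94) and 0.37 (adjusted p = 0.000554). The median over the list was 0.11, but -0.11 with scaling by library size only, which lowered the median of all tested genes to -0.23. Of the kinases directly upstream (MAP2K), 7 were tested and 0 called in either direction (2 up and 3 down by edgeR's adjusted p alone, median -0.25).

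Among the 17 tested genes of the MAP3K list, which does not hold every MAP3K gene, 1 was called up and 3 down. These kinases stand at the top of the relay, and the median log2 fold change of the 17 was -0.023. Map3k8, which feeds ERK downstream of inflammatory receptors, rose from an FPKM of 11.9 ± 0.625 to 23.6 ± 0.0666 (log2 fold change 1.21, edgeR adjusted p = 7.4e-07). Map3k5, a stress-responsive activator of JNK and p38, fell from 10.5 ± 0.475 to 2.89 ± 0.256 (log2 fold change -1.65, edgeR adjusted p = 6.78e-07). Map3k9 and Map3k12, mixed-lineage kinases that feed JNK, fell with log2 fold changes of -1.89 (edgeR adjusted p = 5.04e-06) and -1.02 (edgeR adjusted p = 3.71e-06). With scaling by library size only, the log2 fold changes of Map3k8 (0.997), Mapk11 (0.95) and Dusp14 (0.86) stayed positive but fell short of the fold threshold, which Phlda1, described next, still passed. None of the 10 MAPK-activated kinases (4 up and 4 down by edgeR's adjusted p alone, median 0.076, and -0.14 by library size only, where 1 was called down), of the 6 tested Sprouty and Spred inhibitors (1 up and 1 down, median -0.14) or of the 6 other tested MAPK phosphatases (4 up and 1 down, median 0.46) was called.

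The 16 immediate-early and ERK target genes held 1 called up and 5 down, with 3 up and 8 down by the adjusted p alone and a median log2 fold change of -0.70. With scaling by library size only, 8 were called down (median -0.92). Fos, a subunit of the AP-1 transcription factor, fell from an FPKM of 385.5 ± 68.4 to 109.0 ± 13.6 (log2 fold change -1.60, edgeR adjusted p = 2.18e-05). Its relative Fosb fell from 13.0 ± 1.22 to 2.16 ± 0.778 (log2 fold change -2.37, edgeR adjusted p = 2.91e-05), and Egr2, a zinc finger transcription factor, from 3.33 ± 1.04 to 0.807 ± 0.0306 (log2 fold change -1.57, edgeR adjusted p = 0.000349). Egr1 and Egr3 were the other two called down, with log2 fold changes of -1.06 and -1.03, and both fell short of the fold threshold without control library 2 (-0.84 and -0.75) or without TgAPPswe library 2 (-0.93 and -0.96). Against the others, Phlda1 rose from 6.72 ± 1.37 to 35.7 ± 6.35 (log2 fold change 2.63, edgeR adjusted p = 4.67e-06). Dusp2 and Dusp6, both known as MAP kinase-induced genes, thus stood on opposite sides, as did Phlda1 and Fos.

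Of the 3 Zfp36 genes, whose proteins bind and destabilise short-lived messages, 2 were called down. Zfp36l1 fell from an FPKM of 158.8 ± 4.68 to 27.9 ± 1.73 (log2 fold change -2.30, edgeR adjusted p = 3.85e-08) and Zfp36l2 from 189.1 ± 7.45 to 46.2 ± 4.23 (log2 fold change -1.82, edgeR adjusted p = 2.14e-07). A list of 7 glucocorticoid-related genes was given because glucocorticoids induce Dusp1. It held 0 called up and 3 down (1 up and 5 down by edgeR's adjusted p alone, median -0.52). The 1 that rose by the adjusted p was Nr3c1, which encodes the glucocorticoid receptor itself (log2 fold change 0.29, edgeR adjusted p = 0.00389). Zbtb16 fell with a log2 fold change of -2.74 (edgeR adjusted p = 0.000103), Sgk1 with -1.40 (edgeR adjusted p = 2.12e-05) and Tsc22d3 with -1.28 (edgeR adjusted p = 1.74e-06).

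**Figure D4:**
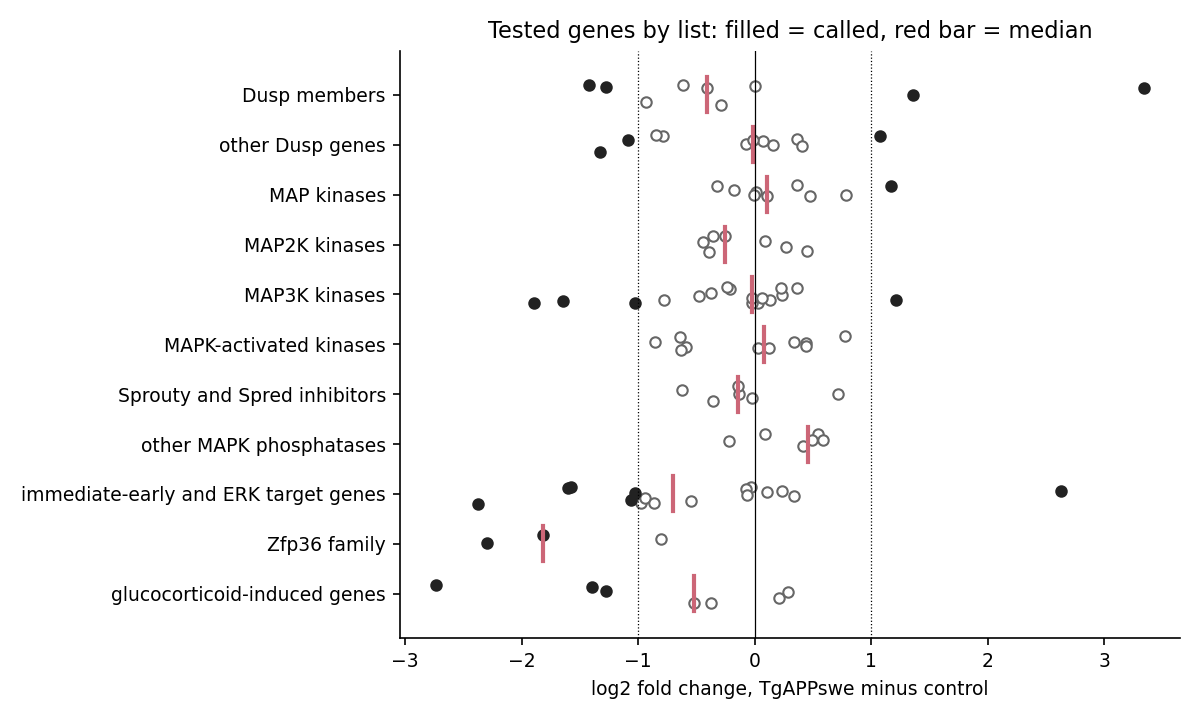
Log2 fold change (TgAPPswe minus control, horizontal axis) of every tested gene of the 9 phosphatase genes and of each pathway list, 1 point per gene, filled where called, with the list median as a red bar and dotted lines at a log2 fold change of 1 in each direction. The medians of the 9 phosphatase genes (-0.41), the immediate-early genes (-0.70) and the Zfp36 family (-1.82) lie left of 0, and Dusp2 (3.34) and Phlda1 (2.63) are the points farthest right.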

How the data were processed

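RNA-seq was measured in 6 libraries of sorted tdTomato+ OB progenitors, 3 per genotype, grouped by the genotype in the labels. The submitters' processing notes name HISAT2 2.0.4, Bowtie2 2.2.5, RSEM 1.2.12, DESeq2 1.4.5 and the mm10 build, and the libraries were sequenced on a DNBSEQ instrument. The authors deposited estimated counts per gene, of which 13.3% to 14.4% of genes per library were fractional, and the authors deposited FPKM (fragments scaled to gene length and to all mapped fragments) for the same 17469 genes. Reads shared between similar genes are divided by such estimates, which can affect genes with fractional values. The authors' columns of log ratios and p-values between genotypes were not used.

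Counts were rounded and fitted with the quasi-likelihood test of edgeR 4.0.16 under R 4.3.3 (genotype as the only term, TMM scaling, filterByExpr, all 6 libraries), over 12701 genes, with a biological coefficient of variation of 9.85% and Benjamini-Hochberg adjustment. Alternatives were DESeq2 1.42.0, RLE factors, library size only, no filter, at least 10 counts in every library, a replicate block, limma 3.58.1 on log2(FPKM + 1) or log2(FPKM + 0.1), the adjusted p alone, CPM in place of FPKM, and each library left out. Leaving libraries out of the shares and ratios was added after seeing the data. Fold changes from limma are on the log2(FPKM + pseudocount) scale, where the pseudocount shrinks changes of low genes and no TMM scaling is applied. Tables and figures used Python 3.11.15, pandas 2.3.3, scipy 1.17.1 and matplotlib 3.10.9.

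Promoter windows came from RefSeq (GRCm38.p6, the build of mm10), with an entry for 8 of the 9 genes. Gene positions are 1-based on the same build. The CArG motif and the NF-kB motif were searched as their usual consensus of 10 letters. The members and lists were chosen with earlier results of these data known. Named genes were the 9 members, App, up to 3 called genes with the largest rises and falls per pathway list, the 3 most abundant markers per cell type list (given for the myeloid and stromal lists), and the 5 genes with the profile nearest to the members with the largest called rise and fall. Mapk3, Mapk8, Mapk9, Mapk14, Egr1, Egr3, Nr3c1, Dusp22, Dusp13 and Dusp15 fall outside that rule and were chosen for naming with their values known. One listed gene is not reported here. Ergic1, AC137853.2 and Gm20659 are named for their position only.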

Additional observations from a re-analysis of the deposited data

How the results depend on the processing

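Dusp2, Dusp16, Dusp6 and Dusp7 kept their calls under every alternative run. Leaving out each library in turn gave 2 to 2 phosphatase genes up and 2 to 2 down, 3 to 4 pathway list genes up and 12 to 16 down, and 1103 to 1150 of all genes up and 1125 to 1262 down. By the adjusted p alone, 4 phosphatase genes were down (Dusp5 at -0.93 and Dusp3 at -0.61 are added), 23 pathway genes up and 37 down, and 4122 of all genes up and 4007 down. Pathway list genes called up numbered 1 (and down 21) with scaling by library size only and 1 in each limma fit, on log2(FPKM + 1), with and without the filter, and on log2(FPKM + 0.1). All genes called up numbered 593 with limma on log2(FPKM + 1) and 589 without its filter, and the cause was not tested. In both fits on log2(FPKM + 1), Dusp8 (-0.51), Dusp9 (-0.23), Egr3 (-0.52) and Zbtb16 (-0.70) stayed negative but short of the fold threshold, as did Dusp9 (-0.97) on log2(FPKM + 0.1). On log2(FPKM + 0.1), 811 of all genes were up and 1510 down. Dusp5 was called down with library size only (-1.15, adjusted p = 0.000313) and with limma on log2(FPKM + 0.1) (-1.11, adjusted p = 5.72e-05). Library size only lowered the median over all tested genes (log2 fold change) from -0.019 to -0.23, limma on log2(FPKM + 1) to -0.16 and on log2(FPKM + 0.1) to -0.22. Dusp4 turned positive with DESeq2 (0.014) and RLE factors (0.0091), and ranged from -0.16 to 0.14 as each library was left out, including 0.13 without control library 2, 0.0087 without control library 3 and 0.0098 without TgAPPswe library 3, and the cause was not tested. With CPM in place of FPKM, shares in control and TgAPPswe libraries were 38.8% and 49.8% for the nuclear genes, 3.82% and 11.8% for the JNK and p38 genes and 22.9% and 20.3% for Dusp3, and 18.1% for the cytoplasmic ERK genes in TgAPPswe libraries, since CPM is not divided by length. Depth limits the scarce genes most, Dusp5, Dusp10 and Dusp2 in control libraries among them.

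Whether the labels' replicate numbers pair the libraries was not determined. Over genes, the deviations of same-numbered libraries from their genotype means correlated at 0.0127, 0.00664 and 0.141. Libraries of different numbers correlated at -0.0522 to 0.0251, so the value for number 3 was the highest. With 3 libraries per genotype these values cannot decide it. A fit with the replicate block gave 2 phosphatase genes up and 2 down, 4 pathway genes up and 14 down (Egr3 at -0.98 was lost), and 1115 of all genes up and 1147 down. In it, Dusp2 had a log2 fold change of 3.33, Dusp16 of 1.36, Dusp6 of -1.42 and Dusp7 of -1.26.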

Other observations

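The genes whose profile over the 6 libraries was nearest to that of Dusp2, measured as the root mean square difference of log2 CPM (prior count 2) centred on the control mean, were Vegfc (0.139), Tal2 (0.149), Slco3a1 (0.192), Gch1 (0.197) and Tmigd1 (0.21). Vegfc, a growth factor of lymphatic vessels, had a mean FPKM of 1.09 in control and 9.51 in TgAPPswe libraries. Gch1, which encodes the first enzyme of tetrahydrobiopterin synthesis, had 4.48 and 33.4, and Slco3a1, which encodes a membrane transporter, had 5.12 and 38.9. Tal2, a helix-loop-helix transcription factor gene, had 0.11 and 1.64. Tmigd1 was listed at a mean FPKM of 0 in control and 0.68 in TgAPPswe libraries, so that its place in this order rests on the prior count. That of Tal2 also depends on it, since the log2 fold change fitted by edgeR was 4.04 for Tal2 and 3.34 for Dusp2.

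Nearest to Dusp6 were Fam193b (0.0375), Fcgr3 (0.0457), Rnf167 (0.0518), Csad (0.0519) and Man2b1 (0.0537). Fcgr3, a receptor for immunoglobulin G on myeloid cells, had a mean FPKM of 395.5 in control and 127.8 in TgAPPswe libraries, and Man2b1, a lysosomal mannosidase, 353.6 and 113.3. Fam193b had 28.4 and 10.1, Rnf167, a ubiquitin ligase, 36.0 and 11.3, and Csad, an enzyme of taurine synthesis, 23.4 and 7.19. These genes were picked for their likeness over the same 6 libraries, so their change is a description with no test.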
